A study of Mus musculus with 1104 samples.

Results

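The astrocyte genes described here are 8 of the 20646 gene symbols in the count table: Gfap, Vim, Aqp4, Gja1, Slc1a2, Slc1a3, S100b and Aldh1l1. They were chosen by name as widely used astrocyte markers, with earlier results of these data known. They were followed in the hypothalamus, hippocampus, neocortex and olfactory bulb, with 84 libraries each, of 1104 libraries in the series. All mice were wild-type C57BL/6 males that were given a high-fat diet (60 kcal% fat) from 8 weeks of age. Each region was sampled at 14 time points (0, 1, 3 and 10 days, and 1, 2, 3, 4, 5, 6, 7, 8, 10 and 12 weeks on the diet), with 6 mice at each. The 0-day mice are the controls of every comparison over time. No group kept on a control diet was analysed here, so time on the diet, age and day of dissection cannot be told apart. The labels do not say whether libraries with the same replicate number came from the same mouse, and p-values measure only the spread between these samples.

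Astrocytes buffer glutamate, potassium and water around neurons and wrap blood vessels with their end feet. When tissue is injured or inflamed they can become reactive, a state known as gliosis, in which the intermediate filament proteins GFAP and vimentin usually accumulate. Gliosis of the mediobasal hypothalamus has been described in rodents within days of a change to fat-rich food, and the comparison asked whether these 8 genes moved in that direction in the hypothalamus and whether the other regions differed from it. In whole-tissue RNA, fewer astrocytes and less RNA per astrocyte cannot be told apart. The libraries are labelled hypothalamus without a subregion and measure RNA. A change confined to the mediobasal part, or to protein, could therefore be missed here.

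The libraries held 10532464 to 20875631 counts, with a median of 13509633, at which 1 CPM (a count scaled to library size with TMM factors) is 13.5 counts. Every gene of the 8 was tested in every region, and the least abundant, Vim in the hypothalamus, was never under 29.6 CPM. Summed markers of each region were highest in the libraries of that region, with 1 exception. The library labelled olfactory bulb, 4 weeks, replicate 6 had 47.8 CPM of olfactory bulb markers against 1151 to 1428 in the other 83, and 12211 CPM of oligodendrocyte markers against 2610 to 4040. In it Slc1a3 was at 286 CPM (682 to 818 in the others) and S100b at 163 CPM (87.6 to 122), so results in the olfactory bulb are given with and without it. In the hypothalamus, the summed hypothalamic markers ranged from 401 to 834 CPM, and replicate 5 at 3 days was the lowest.

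In the GRCm38 annotation, Gfap lies at chr11:102887336-102900912 on the minus strand, Vim at chr2:13573927-13582826 on the plus strand, Slc1a2 at chr2:102658659-102790784 on the plus strand and Slc1a3 at chr15:8634124-8710764 on the minus strand. S100b lies at chr10:76253853-76261159, Gja1 at chr10:56377330-56402513 and Aldh1l1 at chr6:90486427-90600203, all on the plus strand. Counts are per gene symbol, and the overlaps named here are of whole gene spans, introns included. Gfap overlaps Gm26668, S100b overlaps Dip2a and Slc1a2 overlaps Gm13872, each on the opposite strand, Aqp4 and Aldh1l1 also overlap genes on the opposite strand, and Slc1a3 and Aldh1l1 overlap genes on their own strand. Reads in these overlaps are uncertain, because neither the annotation nor the strand setting of the counting is given in the sources used here.

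The promoters of Gfap and Vim are shown because these are the genes that define gliosis. Their values in the hypothalamus were moderately correlated from mouse to mouse (r = 0.41). The RefSeq table matched 7 of the 8 genes. Each sequence is the 250 bases before the RefSeq start, written 5′ to 3′ on the gene's own strand (GRCm38.p6, Gfap chr11:102897201-102897450 minus, Vim chr2:13574061-13574310 plus). Both windows lie inside the gene spans given above, as these RefSeq starts lie downstream of the outermost starts of those spans. The matches hold for these windows only. Capitals mark matches to the TATA box motif TATAAA, the CCAAT box motif CCAAT, the GC box motif GGGCGG, the STAT motif TTCNNNGAA or the AP-1 motif TGANTCA, each searched on both strands.
Gfap: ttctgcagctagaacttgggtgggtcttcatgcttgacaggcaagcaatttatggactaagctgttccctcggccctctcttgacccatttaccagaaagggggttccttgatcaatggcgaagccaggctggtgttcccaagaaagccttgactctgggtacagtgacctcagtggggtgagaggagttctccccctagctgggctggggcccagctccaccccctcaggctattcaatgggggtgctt
Vim: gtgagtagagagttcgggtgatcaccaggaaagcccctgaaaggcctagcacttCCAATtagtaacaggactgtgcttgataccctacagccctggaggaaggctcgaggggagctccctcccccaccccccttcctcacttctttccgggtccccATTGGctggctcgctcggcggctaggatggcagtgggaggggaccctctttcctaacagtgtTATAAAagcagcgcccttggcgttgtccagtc
The Vim window held a TATAAA 32 to 27 bases before the start and CCAAT on either strand (196 to 192 and 94 to 90 bases before it). The matches in the Vim window do not overlap each other, and none of the 5 motifs is in the Gfap window. Among all 32851 promoter windows of the same length, 12.4% held TATAAA, 33.8% CCAAT, 32.7% GGGCGG, 7.02% TTCNNNGAA and 6.75% TGANTCA.

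Before the diet, the regions differed most in Gfap, the filament gene of mature astrocytes, and in Slc1a2, which encodes the glutamate transporter GLT-1. Gfap ran from 136 to 186 CPM in the hypothalamus (median 176), from 184 to 203 CPM in the neocortex (median 196), from 308 to 370 CPM in the olfactory bulb (median 323) and from 418 to 529 CPM in the hippocampus (median 484). The hippocampal and olfactory libraries overlapped neither each other nor the other regions, while the hypothalamus overlapped the neocortex at its upper end. In edgeR's fit of the 24 libraries at 0 days, Gfap was lower in the hypothalamus than in the hippocampus by a log2 change of -1.52 (SE 0.06), than in the olfactory bulb by -0.95 (SE 0.06) and than in the neocortex by -0.21 (SE 0.06). Slc1a2 had another order, as its medians were 4445 CPM in the neocortex, 2815 CPM in the hippocampus, 1873 CPM in the hypothalamus and 1666 CPM in the olfactory bulb.

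**Figure D1:**
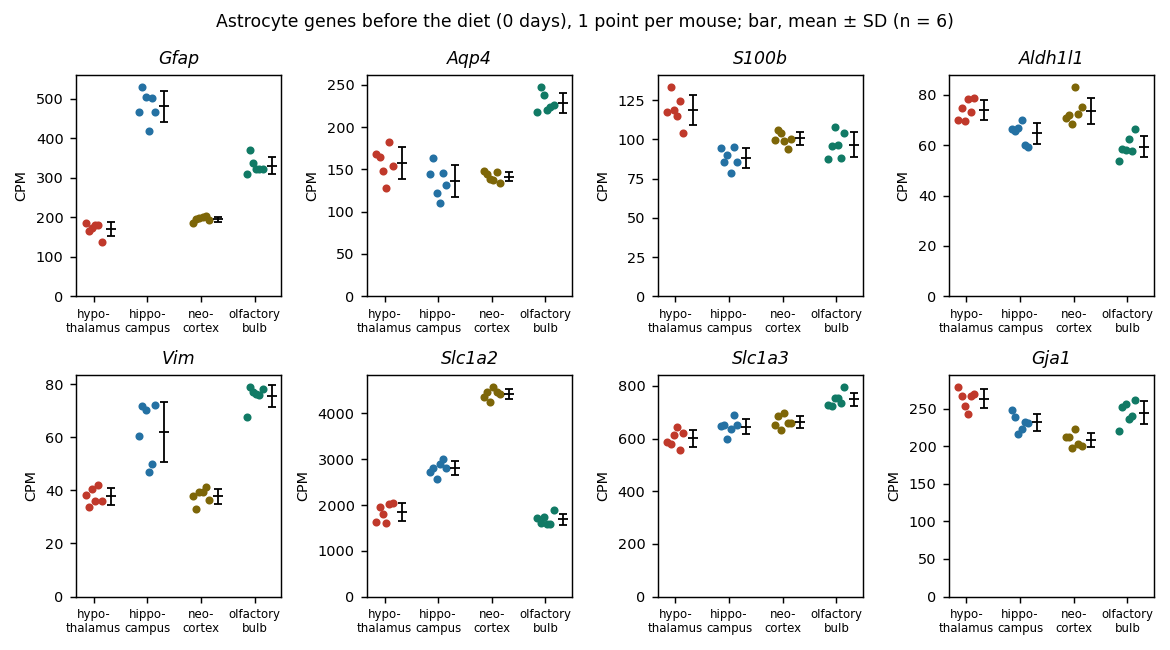
Normalised read counts (CPM) of the 8 astrocyte genes at 0 days in 4 brain regions, with 1 panel per gene, 1 point per mouse and a bar for the mean ± SD of 6. Gfap was lowest in the hypothalamus and highest in the hippocampus, whereas Slc1a2 was highest in the neocortex.

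Vim, the second filament gene, which vascular, ependymal and meningeal cells also use, was highest in the olfactory bulb (median 76.7 CPM) and hippocampus (65.4 CPM) and did not differ between hypothalamus (37.1 CPM) and neocortex (38.5 CPM) beyond its spread, with a log2 difference of -0.01 and a 95% interval from -0.18 to 0.16. Aqp4, the water channel of the end feet, was highest in the olfactory bulb (mean 229 ± 11.4 CPM, SD, n = 6) and stood at 157 ± 18.7 in the hypothalamus, 141 ± 5.7 in the neocortex and 136 ± 18.9 in the hippocampus. Hippocampus and neocortex were not called different in Aqp4 (-0.04, adjusted p = 0.633 in edgeR, where 58.3% of all genes were called), nor were hypothalamus and neocortex (0.15, adjusted p = 0.0687 in edgeR), although 3 of 5 alternatives called the latter (9.9e-07 to 0.068). S100b, a calcium-binding protein also made by oligodendrocytes, was highest in the hypothalamus at 119 ± 9.67 CPM. Gja1, the gap junction protein connexin 43, was also highest there at 263 ± 12.6 CPM. Aldh1l1, a folate enzyme used as a pan-astrocyte marker, was at 74.1 ± 3.93 CPM in the hypothalamus and 73.7 ± 5.14 CPM in the neocortex, a log2 difference of 0.00 (-0.10 to 0.10), and lower in the other regions. Slc1a3, the glutamate transporter GLAST, ran from a mean of 601 ± 31.9 CPM in the hypothalamus to 749 ± 26.2 CPM in the olfactory bulb.

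Of the 8 genes, 8 differed between hypothalamus and hippocampus, 5 between hypothalamus and neocortex and 8 between hypothalamus and olfactory bulb at an adjusted p under 0.05 in edgeR, against 67.6% (33.6% higher, 34% lower), 64.5% (32.4% higher, 32.1% lower) and 74.1% (37% higher, 37.1% lower) of the 14937 genes tested. In each of these comparisons with the hippocampus and the olfactory bulb, 4 were higher and 4 lower in the hypothalamus. Against the neocortex 2 were higher (S100b and Gja1) and 3 lower (Gfap, Slc1a2 and Slc1a3). Per kilobase of transcript, the mean levels in the hypothalamus ranked Slc1a2 first (159 CPM per kb), then Slc1a3 (144), Gja1 (82.6), S100b (80.1), Gfap (64.1), Aqp4 (31.2), Aldh1l1 (17.8) and Vim (17.2).

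During the diet, neither filament gene was called at any of the 13 time points in the hypothalamus. Gfap at 12 weeks ran from 164 to 189 CPM (median 183) against 136 to 186 CPM (median 176) at 0 days, and the groups overlapped. Its log2 change was 0.09 (SE 0.09, interval -0.10 to 0.27, adjusted p = 0.66 in edgeR). At 3 days it ran from 134 to 194 CPM, with a log2 change of 0.02 (-0.16 to 0.21), and at 1 week the change was 0.10 (-0.08 to 0.29).

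The means of Gfap lay between 162 CPM at 6 weeks and 195 CPM at 3 weeks, a ratio of 1.21, and the highest library of all 84 (274 CPM) was at 2 weeks. A linear trend over all 84 libraries gave a fitted log2 change over 12 weeks of -0.01 (SE 0.06, interval -0.13 to 0.11). Differences inside these intervals were not detectable with 6 mice a group. In the 7 alternatives computed for 12 weeks the adjusted p of Gfap (edgeR or DESeq2) stayed between 0.47 and 0.68.

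Vim in the hypothalamus was at 32.4 to 60.8 CPM at 12 weeks (median 38.7) and at 33.7 to 42.1 CPM at 0 days (median 37.1), with overlapping groups and a log2 change of 0.11 (SE 0.11, adjusted p = 0.645 in edgeR). The value of 60.8 CPM belonged to replicate 5, and the other 5 libraries were at 32.4 to 39.2 CPM. In that library the summed markers of mural cells and fibroblasts were 393 CPM, against 228 to 277 CPM in the other 5, and its reactive astrocyte sum was also the highest of the group. When the library least correlated with its group was left out at every time point, which at 12 weeks is this one, the log2 change was -0.05. The trend of Vim over 12 weeks was -0.04 (-0.18 to 0.10).

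**Figure D2:**
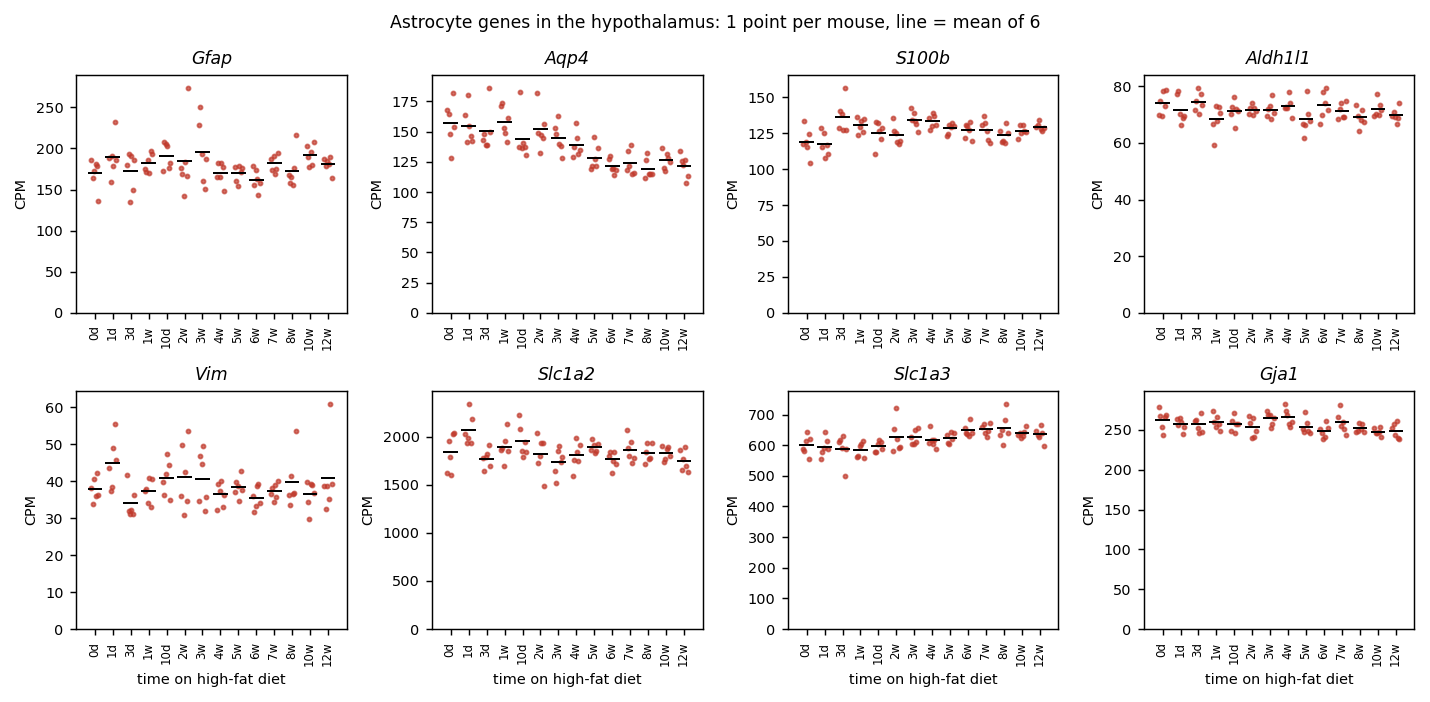
CPM of the 8 astrocyte genes in the hypothalamus at each of 14 time points on the diet (horizontal axis, not to scale in time), with 1 point per mouse and a line at the mean of 6. The means of Gfap stayed between 162 and 195 CPM, while those of Aqp4 went from 157 CPM at 0 days to 121 CPM at 12 weeks.

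The largest change among the 8 in the hypothalamus was a fall of Aqp4. It was at 128, 148, 154, 165, 168 and 182 CPM in the mice at 0 days and at 107, 113, 122, 125, 126 and 134 CPM in those at 12 weeks. Only the lowest 0-day mouse overlapped the 12-week mice. The log2 change was -0.38 (SE 0.07, adjusted p = 0.000167 in edgeR), and Aqp4 was the only 1 of the 8 called at 12 weeks, where 6.8% of the 15027 genes tested were called. It was called lower at each of the 6 time points from 5 weeks on, with log2 changes of -0.29 to -0.40, and at none before. The trend over 12 weeks was -0.43 (SE 0.05, adjusted p = 1.71e-12 in edgeR), and the call at 12 weeks held in all 7 alternatives, with adjusted p-values from 4.6e-05 to 0.0032.

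Oligodendrocyte markers fell in the same libraries: 11 of 12 tested were called lower over time, with a median log2 change of -0.48 over 12 weeks (all genes -0.003), and their summed level (no marker at 0) went from 9689 to 11240 CPM at 0 days to 7495 to 8368 CPM at 12 weeks. Across the 84 hypothalamus libraries, with the mean of each time point subtracted, the genes with values most like those of Aqp4 were Car2 (r = 0.66), Lpar1 (r = 0.64) and Trp53inp2 (r = 0.63), of which Car2, a carbonic anhydrase, is abundant in oligodendrocytes. At 3 days, replicate 5 had the highest oligodendrocyte sum of all hypothalamus libraries (13552 CPM) and also stood apart from the other 5 in Aqp4 (186 CPM against 139 to 149). The part of the oligodendrocyte markers in the fall of Aqp4 was not tested.

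The transporter genes differed from each other in the hypothalamus. Slc1a3 was at 556 to 644 CPM at 0 days (median 601) and at 597 to 667 CPM at 12 weeks (median 637), so the groups overlapped, and the log2 change of 0.08 (SE 0.04) was not called. It was called higher at 7 weeks (0.12) and 8 weeks (0.13), and its trend rose by 0.14 over 12 weeks (SE 0.03, adjusted p = 8.64e-06 in edgeR). Slc1a2 was at 1607 to 2039 CPM at 0 days and at 1631 to 1898 CPM at 12 weeks. It was called at no single time point, with log2 changes from -0.08 at 3 weeks to 0.17 at 1 day. The joint test of all 13 time points called it (adjusted p = 0.013 in edgeR), whereas its trend of -0.09 was not called (adjusted p = 0.0724 in edgeR, with 0.049 to 0.11 over 8 alternatives).

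Gja1 went from 243 to 278 CPM at 0 days (median 267) to 238 to 261 CPM at 12 weeks (median 248), with a log2 change of -0.08 (SE 0.03, adjusted p = 0.095 in edgeR). Its fall over all time points was small but called, at -0.07 over 12 weeks (SE 0.02, adjusted p = 0.00719 in edgeR). The call was lost when time was entered as log2 of days (adjusted p = 0.0513, with 4.4e-06 to 0.051 over 8 alternatives in edgeR and DESeq2).

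S100b gave the only call at 3 days, within the window in which hypothalamic gliosis has been described. It was at 104 to 133 CPM at 0 days (median 118) and at 127 to 156 CPM at 3 days (median 134), with overlapping groups and a log2 change of 0.20 (SE 0.04, adjusted p = 0.00808 in edgeR). At that time 0.952% of genes were called, and at 1 week, where none of the 8 was called, 0.692%. The highest value, 156 CPM, came from the same replicate 5 whose oligodendrocyte markers stood apart, and when the library least correlated with its group was left out at every time point, this one included, the change was 0.15 and no longer called (adjusted p = 0.105 in edgeR, with 0.0023 to 0.21 over 7 alternatives). The call was also lost when the 0-day and 3-day libraries were fitted alone (adjusted p = 0.211 in edgeR).

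S100b was also called higher at 3 weeks (0.18) and 4 weeks (0.17), and at 12 weeks it was at 126 to 134 CPM with a log2 change of 0.12 that was not called (adjusted p = 0.0798 in edgeR). Among the genes most like it across hypothalamus libraries were Trf (r = 0.65) and Pacs2 (r = 0.64). Trf encodes transferrin, which oligodendrocytes make. Aldh1l1 was called at no time point, and ran from 69.7 to 78.8 CPM at 0 days and from 66.5 to 74.1 CPM at 12 weeks, with a trend of -0.04 (-0.10 to 0.01).

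Over the 8 genes, 3 had a called trend in the hypothalamus (1 higher, 2 lower), against 29.1% of all genes tested. The joint test of 13 time points called 4 (Aqp4, S100b, Slc1a2 and Slc1a3), against 31.1% of all genes. Of the 104 tests of a gene at a time point, 11 were called, or 10.6%, against 4.72% for all genes, and these were 5.28% at 1 day, 0.579% at 10 days, 0.153% at 2 weeks, 4.96% at 3 weeks, 6.04% at 4 weeks, 5.2% at 5 weeks, 7.63% at 6 weeks, 8.14% at 7 weeks, 6.78% at 8 weeks and 8.21% at 10 weeks. These comparisons share the 0-day mice, and the 8 genes were chosen with earlier results of these data known. The same count was 10 of 104 in the hippocampus (5.61% of all genes), 23 in the neocortex (13.2%) and 31 in the olfactory bulb (14.7%), where it was 37 of 104 without the library that goes against its label (19.9% of all genes).

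**Figure D3:**
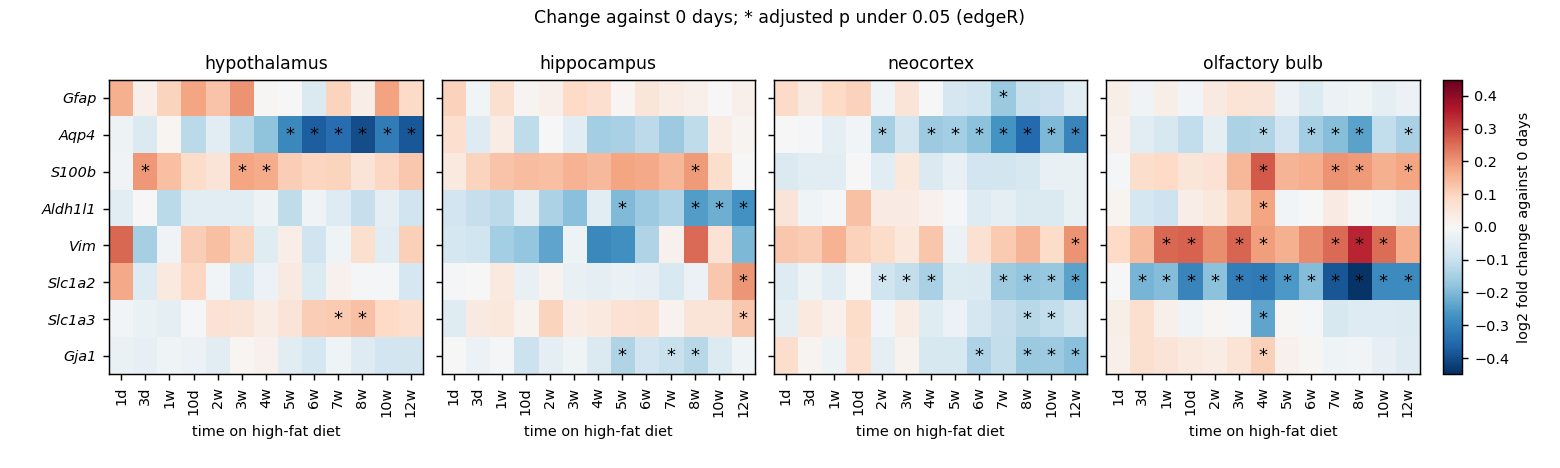
Log2 fold change of each astrocyte gene against 0 days (colour) at 13 time points in 4 regions, fitted by edgeR with all 84 libraries of a region, with an asterisk where the adjusted p was under 0.05. The hypothalamus has no asterisk for Gfap or Vim and 6 for Aqp4, and the 7 asterisks of the olfactory bulb at 4 weeks include the library that goes against its label.

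In the neocortex 6 of the 8 genes fell over time. Aqp4 was at 134 to 147 CPM at 0 days and at 105 to 121 CPM at 12 weeks with no overlap, a log2 change of -0.30 (SE 0.05, adjusted p = 8.87e-07 in edgeR). Slc1a2 went from 4261 to 4570 CPM to 3610 to 3888 CPM, also without overlap, a change of -0.24 (SE 0.03, adjusted p = 7.36e-10 in edgeR). Gja1 went from 198 to 222 CPM to 173 to 195 CPM without overlap, a change of -0.19 (SE 0.04, adjusted p = 0.000229 in edgeR).

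Vim was called higher in the neocortex at 12 weeks (0.20, SE 0.07, adjusted p = 0.0209 in edgeR), but not with offsets for GC content and length (adjusted p = 0.067) or without the least correlated libraries (adjusted p = 0.133), with 0.0075 to 0.13 over 7 alternatives in edgeR and DESeq2. These 4 calls of 8 stand against 25% of the 14851 genes tested. Over all 84 neocortex libraries, 6 of the 8 had a called downward trend and none an upward one, against 38.1% of genes called in either direction, 18.5% higher and 19.7% lower. Gfap was among them, at -0.19 over 12 weeks (SE 0.03, adjusted p = 1.93e-06 in edgeR), although its 12-week mice (181 to 197 CPM) overlapped the 0-day mice (184 to 203 CPM). The trend of Aldh1l1 (-0.11) was lost in 2 of 8 alternatives, with adjusted p-values from 0.0016 to 0.098 in edgeR and DESeq2. Markers of other cells fell in the same libraries: 13 of 16 microglia markers (summed 612 to 664 CPM at 0 days, 509 to 593 CPM at 12 weeks), 10 of 12 endothelium markers (444 to 496 CPM, then 399 to 449 CPM), 11 of 12 oligodendrocyte markers (6627 to 7709 CPM, then 5353 to 5801 CPM) and 10 of 10 choroid plexus markers (14.7 to 240 CPM with a median of 17.3, then 10.3 to 26.8 CPM with a median of 18.2). In the same libraries 10 of 14 neuron markers rose and 1 fell (8780 to 9481 CPM, then 9474 to 10140 CPM). No marker of these lists was at 0, and 4 of the 10 choroid plexus markers were under 1 CPM. The part of these lists in the falls of the astrocyte genes was not tested.

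In the hippocampus Gfap was at 418 to 529 CPM at 0 days and 472 to 524 CPM at 12 weeks, with a log2 change of 0.02 (-0.06 to 0.10), and was called at no time point. Aldh1l1 fell, from 59.3 to 69.9 CPM at 0 days to 49.6 to 60 CPM at 12 weeks, by -0.27 on the log2 scale (SE 0.06, adjusted p = 0.000162 in edgeR). Slc1a2 moved the other way, from 2578 to 3012 CPM at 0 days to 3061 to 3381 CPM at 12 weeks with no overlap, a log2 change of 0.20 (SE 0.04, adjusted p = 0.00029 in edgeR). Its rise was lost with offsets for GC content and length (0.08, adjusted p = 0.0713, with 4.2e-06 to 0.071 over 7 alternatives in edgeR and DESeq2).

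The third called gene of the hippocampus at 12 weeks, Slc1a3 (0.12, SE 0.04, adjusted p = 0.0175 in edgeR), was lost with the same offsets (adjusted p = 0.0687, with 0.0021 to 0.069 over 7 alternatives in edgeR and DESeq2). In all, 3 of 8 were called, against 25.6% of the 14850 genes tested, and 4 had a called trend (2 higher, 2 lower), against 38.4% (18.8% higher, 19.6% lower). The trend of Gja1 (-0.06, adjusted p = 0.0394 in edgeR) held in only 2 of 8 alternatives, with adjusted p-values from 0.0014 to 0.19, and that of Slc1a2 (0.12) was 0.03 with the offsets (adjusted p = 0.27, with 2.7e-05 to 0.27 over 8 alternatives in edgeR and DESeq2). The joint test of 13 time points called 7 of the 8 in the hippocampus (39.5% of all genes), 5 in the neocortex (34.8%) and 5 in the olfactory bulb (41.8%, and 7 against 48.1% without the library that goes against its label). Oligodendrocyte markers fell here as well, with 12 of 12 tested called lower over time and a summed level of 6787 to 8744 CPM at 0 days and 4354 to 4796 CPM at 12 weeks, while Aqp4 had a log2 change of 0.01 at 12 weeks (-0.11 to 0.14). Their part in the changes of the other astrocyte genes was not tested.

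In the olfactory bulb, Slc1a2 was called lower at 12 of 13 time points, the first of them 3 days. It was at 1585 to 1885 CPM at 0 days and at 1318 to 1409 CPM at 12 weeks with no overlap, a log2 change of -0.29 (SE 0.05, adjusted p = 3.72e-05 in edgeR), and of -0.30 without the library that goes against its label. Aqp4 fell by -0.15 on the log2 scale (adjusted p = 0.0439 in edgeR, and 0.0169 without that library), from 218 to 247 CPM to 183 to 218 CPM, and this call was lost with offsets for GC content and length (-0.03, adjusted p = 0.797, with 0.013 to 0.8 over 8 alternatives in edgeR and DESeq2). S100b rose by 0.18 (adjusted p = 0.0447 in edgeR, and 0.00738 without that library), and this call held in 4 of 8 alternatives, with adjusted p-values from 0.0066 to 0.073.

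These 3 calls of 8 stand against 20.8% of the 14935 genes tested, and 28.8% without the library. At 4 weeks the library changed the count of called genes from 7 to 5 (39.9% of all genes were called with it and 35.1% without it), since Aldh1l1 and Gja1 were called only with it. Without it the trend called 6 of the 8 in place of 4, adding Gfap (-0.07, adjusted p = 0.0344 in edgeR) and Slc1a3 (-0.11, adjusted p = 4.61e-06 in edgeR). Of all genes, 37.1% had a called trend with it (18.7% higher, 18.3% lower) and 44.7% without it. The trends of Aqp4 and Gja1 were lost with the offsets (-0.06 for each, adjusted p = 0.109 and 0.144 in edgeR), with ranges over 9 alternatives of 3.2e-06 to 0.11 and 4e-05 to 0.14. Vim was called higher at 7 of 13 time points (9 without the library), with the highest log2 change, 0.34, at 8 weeks. In the same libraries 4 of 12 oligodendrocyte markers (2751 to 3519 CPM summed at 0 days, 2746 to 2903 CPM at 12 weeks) fell over time, and 10 of 12 without the library, where 1 rose. Of the markers of newborn neurons and precursors (1338 to 1464 CPM, then 1222 to 1266 CPM) 6 of 12 fell with it and without it. Their part in these changes was not tested.

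**Figure D4:**
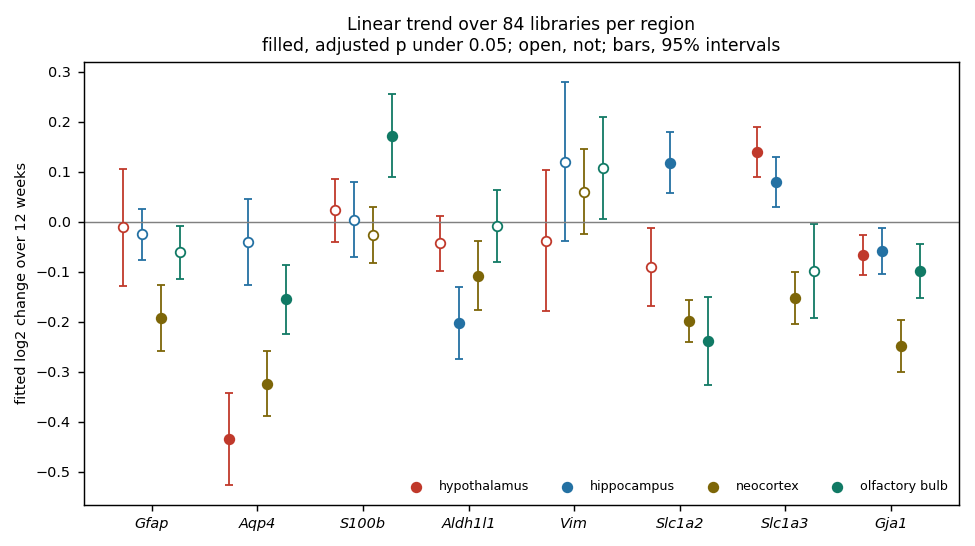
Fitted log2 change over 12 weeks (vertical axis) of each astrocyte gene in 4 regions from a linear trend over 84 libraries each, with bars for 95% intervals, filled where the adjusted p was under 0.05. Aqp4 had the lowest value in the hypothalamus (-0.43), and the neocortex had 6 filled points, all below 0.

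The changes were compared directly between regions in 1 edgeR fit of the libraries of all 4 regions. Aqp4 fell further in the hypothalamus than in the hippocampus, by a log2 difference of -0.42 at 12 weeks (SE 0.09, adjusted p = 0.000234) and of -0.41 in the trend (SE 0.06, adjusted p = 1.78e-09). Its trend also differed from the olfactory bulb (-0.28, SE 0.06, adjusted p = 2.52e-05 in edgeR), while its difference at 12 weeks was not called (-0.23, -0.40 to -0.06, adjusted p = 0.0661 in edgeR), with 0.026 to 0.1 over 5 alternatives, 1 of which called it. Against the neocortex the difference was -0.13 in the trend (-0.24 to -0.01, adjusted p = 0.132 in edgeR), with 0.049 to 0.16 over 5 alternatives, 1 of which called it, and -0.09 at 12 weeks (-0.27 to 0.08).

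The change of Slc1a2 at 12 weeks, not called in the hypothalamus itself, lay below that of the hippocampus, where Slc1a2 rose (-0.30, SE 0.07, adjusted p = 0.00156 in edgeR). It lay above that of the olfactory bulb, where Slc1a2 fell (0.21, SE 0.07, adjusted p = 0.0348 in edgeR). The second call was lost when only those 2 regions were fitted (adjusted p = 0.0683 in edgeR), and was made in 2 of 5 alternatives, with 0.016 to 0.075. Differences between regions were not recomputed with offsets for GC content and length. With those offsets the rise of Slc1a2 in the hippocampus itself was 0.08 and no longer called. For Gfap, no difference at 12 weeks was called against any region, with 0.04 (-0.13 to 0.21) against the hippocampus, 0.13 (-0.04 to 0.30) against the neocortex and 0.12 (-0.06 to 0.29) against the olfactory bulb. Its trend was above that of the neocortex by 0.17 (SE 0.06, adjusted p = 0.0286 in edgeR), where the neocortex fell, and this call was lost in a fit of the 2 regions alone (adjusted p = 0.07 in edgeR, with 0.016 to 0.07 over 5 alternatives).

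The trend of Slc1a3 lay above that of the neocortex by 0.28 (adjusted p = 1.87e-06 in edgeR) and above that of the olfactory bulb by 0.24 (adjusted p = 2.25e-05 in edgeR). In all, 13 of 48 such differences were called. At 12 weeks they were 2 of 8 genes against the hippocampus, 0 of 8 against the neocortex and 1 of 8 against the olfactory bulb, where 8.84%, 6.71% and 9.5% of the 15669 genes tested were called. In the trends they were 3, 3 and 4 of 8, against 20%, 14.8% and 30.8%. The 3 contrasts share the hypothalamus libraries.

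**Figure D5:**
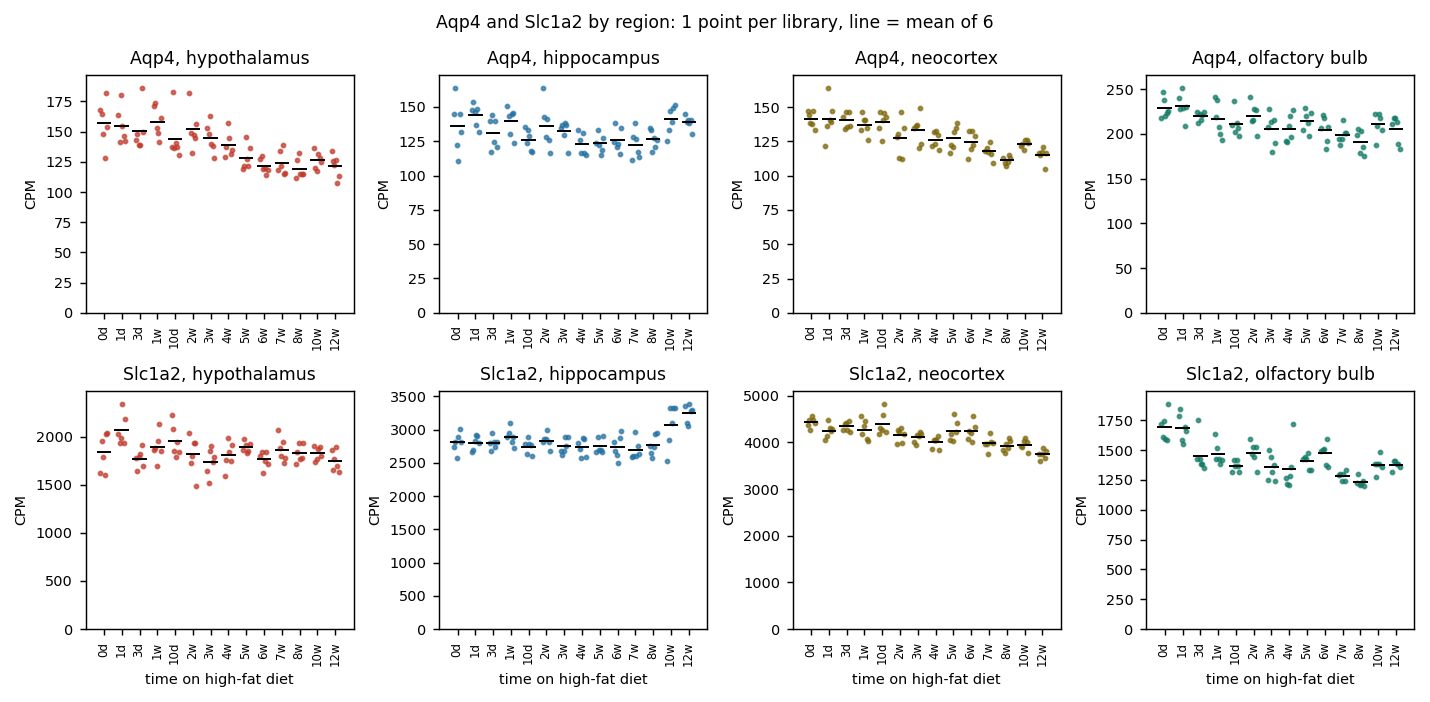
CPM of Aqp4 (upper row) and Slc1a2 (lower row) in the 4 regions at 14 time points, with 1 point per library and a line at the mean of 6. Aqp4 went from 157 to 121 CPM in the hypothalamus between the first and last means and stayed at 136 and 139 CPM in the hippocampus, and Slc1a2 ended above its 0-day libraries in the hippocampus and below them in the neocortex and olfactory bulb.

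Other astrocyte genes and genes of reactive astrocytes were read from lists of 30 and 40, chosen with earlier results of these data known. Of the reactive astrocyte list, 34 were tested in the hypothalamus, and 10 rose and 0 fell over time, with a median log2 change of 0.07 over 12 weeks (all genes -0.003). The called share of 29.4% was close to the 29.1% of all genes, of which 14.4% rose and 14.8% fell. The members with the smallest p were Stat3, a transcription factor of cytokine signalling (0.28, SE 0.02), Serpina3n, a secreted protease inhibitor (0.69, SE 0.06), Fbln5, an elastic fibre protein (0.54, SE 0.08), and C3, complement component 3 (0.72, SE 0.13). At 12 weeks 5 of 34 were called, all higher, with a median of 0.15, where 3.09% of all genes were called higher.

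The summed reactive astrocyte level was at 419 to 478 CPM at 0 days (median 466) and at 494 to 589 CPM at 12 weeks (median 516), without overlap. The highest of these, 589 CPM, was replicate 5, and the others reached 528 CPM. The trend of Serpina3n exceeded those of the hippocampus, by 0.73 (adjusted p = 1.83e-10 in edgeR), the neocortex, by 0.53 (adjusted p = 0.000418), and the olfactory bulb, by 0.61 (adjusted p = 2.2e-07). Stat3 also rose in the hippocampus (0.19) and in the neocortex (0.07) and olfactory bulb (0.09). Its trend in the hypothalamus exceeded those of the neocortex (by 0.195, adjusted p = 4.55e-05 in edgeR) and olfactory bulb (by 0.194, adjusted p = 9.92e-06). Against the hippocampus its difference of 0.08 was not called (adjusted p = 0.149 in edgeR). The trend of Fbln5 exceeded those of the same regions but not of the hippocampus (adjusted p = 0.796 in edgeR). That of C3 exceeded only the olfactory bulb (adjusted p = 0.157 against hippocampus and 0.705 against neocortex in edgeR). Several genes of the list, Stat3 and C3 among them, are also used by other cells than astrocytes. In the hippocampus 12 of 37 rose and 1 fell, beside 18.8% and 19.6% of all genes. In the neocortex 5 of 34 rose and 4 fell, beside 18.5% and 19.7%. In the olfactory bulb 5 of 39 rose and 3 fell, beside 18.7% and 18.3%, and without the library that goes against its label 5 rose and 4 fell.

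Of the 30 other astrocyte genes, 2 rose and 11 fell over time in the hypothalamus, beside 14.4% and 14.8% of all genes, with a median of -0.02, and the smallest p belonged to Hepacam, a cell adhesion protein (-0.16, SE 0.02), Ntsr2, a neurotensin receptor (-0.20, SE 0.03), Slc7a10, a serine transporter (-0.20, SE 0.03), and Gpr37l1, a receptor of astrocytes (-0.18, SE 0.02). In the neocortex 20 of 30 fell and 1 rose, beside 19.7% and 18.5% of all genes. Microglia markers were called in 3 of 16 cases in the hypothalamus, a smaller share than the 29.1% of all genes: Ctss, a lysosomal protease (0.34, SE 0.04), and Itgam (0.29, SE 0.09) rose and Cx3cr1 fell (-0.14, SE 0.05). Tanycytes line the floor of the third ventricle and share Vim with astrocytes. Of their 12 markers 2 rose and 1 fell, a count near the 29.1% of all genes and not a result about tanycytes.

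Within the hypothalamus the 8 genes did not move as 1 group from mouse to mouse. Over 84 libraries, with time point means subtracted, the highest correlations between members were Aqp4 with Gja1 (r = 0.51), Aqp4 with S100b (r = 0.41) and Gfap with Vim (r = 0.41), and the lowest was Aqp4 with Slc1a3 (r = -0.52). These are descriptions: values of 1 library share its depth and its dissection. Gfap was most like Myoc (r = 0.66), and Aldh1l1 was most like the astrocyte genes Ndrg2 (r = 0.53) and Aldoc (r = 0.52). Slc1a2 was most like Grin2b (r = 0.90), Kalrn (r = 0.89) and Dgkh (r = 0.89), which are genes with transcripts of 24060, 10438 and 15257 bases, where Slc1a2 has 11595 bases and the median gene 3187.

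Vim was most like Aebp1 (r = 0.80), Pcolce (r = 0.79) and Bgn (r = 0.78), genes of the extracellular matrix. The choroid plexus, a tissue of the ventricles, also uses Vim, and the relation of Vim to its summed markers was computed in the 4 regions. Summed choroid plexus markers ranged from 32 to 4804 CPM in the hippocampus and from 27.7 to 337 CPM in the hypothalamus. They ranged from 10.3 to 621 CPM in the neocortex and only from 31.3 to 58.6 CPM in the olfactory bulb. In each region but the hippocampus, 4 of the 10 markers were under 1 CPM. The olfactory sum therefore holds little choroid plexus signal to relate to Vim. With time point means subtracted, Vim correlated with that sum in the hippocampus with Pearson's r = 0.43 (permutation p = 0.00028, adjusted p = 0.000825 over 5 relations) and Spearman's rho = 0.40 (permutation p = 0.00055), and with r = 0.435 without the 2 libraries farthest from the median. In the hypothalamus r was 0.24 (permutation p = 0.0422, adjusted p = 0.0527) and rho 0.41 (permutation p = 0.00034), with r = 0.28 without the 2 farthest libraries. In the olfactory bulb r was 0.385 and rho 0.373 (permutation p = 0.00202 and 0.0017), with r = 0.36 without the 2 farthest, and r = 0.44 without the library that goes against its label. In the neocortex r was -0.04 and rho -0.05 (permutation p = 0.727 and 0.661).

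The 56 means of a region at a time point share the differences between regions, and were taken without the library that goes against its label. Over these means, Gfap was most like Thsd4 (r = 0.99), Aqp4 like Nid1 (r = 0.96), S100b like Bex1 (r = 0.955), Aldh1l1 like Slc9a5 (r = 0.94), Vim like Kctd12 (r = 0.97), Slc1a2 like Zfp365 (r = 0.99), Slc1a3 like Pan3 (r = 0.91) and Gja1 like Abhd4 (r = 0.94). None of these genes was also among the 3 most like the same gene within the hypothalamus.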

How the data were processed

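Per the labels' protocols, poly(A) RNA of each sample was made into strand-marking libraries. The authors deposited whole-number read counts per gene symbol. The tools named in the submitters' processing notes are Trimmomatic 0.38 for trimming, HISAT2 2.1.0 as aligner and featureCounts 1.6.3 as counter, beside FastQC 0.11.7 and SAMtools 1.9, on mm10 (GRCm38). Which annotation and strand setting were used is not given in the sources used here. The 84 columns of each of the 4 brain regions were used and the other 768 columns of per-sample values were not.

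Each region was fitted alone (84 libraries, 1 coefficient per time point, or weeks as a number for the trend, given as the log2 change over 12 weeks), and all 4 together for differences between regions, with edgeR 4.0.16 in R 4.3.3: filterByExpr, TMM, glmQLFit and glmQLFTest, two-sided, Benjamini-Hochberg adjustment over all genes tested, threshold 0.05. CPM use TMM factors. 95% intervals are normal ones from the standard error. No 2 libraries of the same region and time point agreed within sampling noise (lowest chi-square per degree of freedom 2.13). Libraries of different time points were not compared in this way. Likeness was Pearson's r of log2 CPM (prior count 2) over genes averaging 5 CPM or more, and the 3 highest of each gene could be named (1 of them is not reported here). Of each other list, up to 4 genes called in the hypothalamus trend were named, by smallest p, or 2 where none was called. Correlations across samples had 100000 permutations within time points. Alternatives used DESeq2 1.42.0, limma 3.58.1, other scaling, filters, offsets and sets of libraries. Scripts were tested on simulated data. The 8 genes and all lists were chosen with earlier results of these data known. Transcript lengths and coordinates are from GENCODE, and promoters from RefSeq (GRCm38.p6).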

Additional observations from a re-analysis of the deposited data

Results flagged for a closer look

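Among 128 sets of 6 values (8 genes in 4 regions, at 0 days, 3 days, 1 week and 12 weeks), 7 had a library that stood apart from the other 5 by the gap to its nearest neighbour, relative to the range of the group, where chance gives about 1 in 20. The other time points were not counted. Aqp4 in the hypothalamus at 3 days was at 186 CPM in replicate 5 (others 139 to 149), and Slc1a3 in the same library was at 499 CPM (others 586 to 630). That library also had 13552 CPM of oligodendrocyte markers (others 10391 to 10920) and 401 CPM of hypothalamus markers (others 512 to 649). Vim in the hypothalamus at 12 weeks was at 60.8 CPM in replicate 5 (others 32.4 to 39.2). Aqp4 in the neocortex at 12 weeks was at 105 CPM in replicate 5 (others 115 to 121), and Gfap in the hippocampus at 3 days was at 447 CPM in replicate 4 (others 476 to 489). In the olfactory bulb, Vim at 0 days was at 67.6 CPM in replicate 1 (others 76 to 78.8), and Slc1a2 at 3 days was at 1751 CPM in replicate 2 (others 1351 to 1429).

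The change differed between regions, by the interaction test of edgeR, in 13 of 48 cases, given here as log2 differences of hypothalamus minus the other region. Against the hippocampus these were Aqp4 (-0.42 at 12 weeks, -0.41 in the trend), Slc1a2 (-0.30 and -0.22) and Aldh1l1 (0.15 in the trend). Against the neocortex they were the trends of Gfap (0.17), Slc1a3 (0.28) and Gja1 (0.17). Against the olfactory bulb they were Slc1a2 at 12 weeks (0.21) and the trends of Aqp4 (-0.28), S100b (-0.15), Slc1a2 (0.15) and Slc1a3 (0.24).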

How the results depend on the processing

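Of 146 recomputed counts of called astrocyte genes, 137 stayed within 1.5 times the reported count. In the hypothalamus at 3 days the count of 1 became 0 in a fit of the 2 groups alone and 0 without the least correlated libraries, and at 12 weeks the count of 1 became 2 with offsets for GC content and length, which added Gja1 (-0.11). With the same offsets the hippocampus went from 3 to 1 at 12 weeks and from 4 to 2 in the trend, where Slc1a2 was at 0.03. Between hypothalamus and olfactory bulb at 12 weeks the count of 1 became 0 in a fit of the 2 regions alone and 0 in limma-trend. At 0 days, hypothalamus against neocortex went from 5 to 8 with all time points pooled, where Aldh1l1 had the opposite sign (-0.062). Of 968 single values, 909 were counted as unchanged, 31 lost a call and 21 gained one. Unchanged values kept their side of the threshold. Their direction was also kept, unless neither fit called the gene and the shift was under its standard error. The cause of these shifts was not tested. For counts over all genes, 9 of 146 moved by over 1.5 times: in the hypothalamus 143 at 3 days became 73 with the offsets and 17 with 2 groups, 104 at 1 week became 159 with DESeq2, 171 with the replicate block and 7 with 2 groups, and 1022 at 12 weeks became 613 with 2 groups (fewer samples). In the olfactory bulb the offsets gave 1528 in place of 3107 at 12 weeks and 3821 in place of 6244 in the joint test. Without the library labelled olfactory bulb, 4 weeks, replicate 6, the olfactory counts of called genes were 3 at 12 weeks, 6 in the trend and 7 in the joint test, in place of 3, 4 and 5, and the differences from the hypothalamus gave 1 and 4, as with it.

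Replicate numbers are shared between groups, but the labels do not say what they mark. Between regions, samples of the same number had median correlations of their deviations from 0.027 to 0.043, at most 6 of 84 pairs were over 0.1, and 36 to 58 of 84 correlated best with their own number, a hint from the data and not from the design. With the replicate block, counts of called astrocyte genes within regions stayed within 1.5 times of those reported (1 in the hypothalamus at 12 weeks, 3 in its trend, 5 in place of 4 in its joint test, 2 in place of 3 in the olfactory bulb at 12 weeks). For differences between regions, an edgeR fit with 84 block levels was not run to its end and limma on paired differences of log2 CPM was used. It called Slc1a3 against the neocortex at 12 weeks (0.15, adjusted p = 0.0272 in limma), 1 in place of 0, and 1694 genes in place of 1051. It also called Aqp4 against the neocortex in the trend (-0.12, adjusted p = 0.0486 in limma) and against the olfactory bulb at 12 weeks (-0.22, adjusted p = 0.0262 in limma).

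None of the 8 genes was under 29.6 CPM in any library. The counting error of a library of average count was 0.43% (Slc1a2 in the neocortex) to 4.37% (Vim in the neocortex) of the level, where the median coefficient of variation within a group was 3.33% and 7.54%. For Aldh1l1 in the olfactory bulb they were 3.38% and 4.21%.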

Other observations

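Over the diet, 11 of 12 oligodendrocyte markers fell in the hypothalamus, 12 of 12 in the hippocampus, 11 of 12 in the neocortex (1 rose) and 4 of 12 in the olfactory bulb, or 10 of 12 there without the library that goes against its label (1 rose). In the hypothalamus Mog, a protein of the outer myelin surface, had a trend of -0.69 (SE 0.04) over 12 weeks and Cldn11, the tight junction protein of myelin, of -0.66 (SE 0.03). In the hippocampus the same genes were at -1.13 and -1.0, and in the neocortex at -0.69 and -0.59. In the olfactory bulb they were at -0.42 and -0.28, and at -0.41 and -0.27 without that library, while the summed markers of the 0-day libraries (2751 to 3519 CPM) overlapped those of 12 weeks (2746 to 2903 CPM). The trend of Mog in the hypothalamus was less steep than in the hippocampus by 0.42 (adjusted p = 0.000763 in edgeR).

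The other lists in the hypothalamus trend stand beside 14.4% of all genes that rose and 14.8% that fell. Of 11 hypothalamus markers 6 rose and 1 fell, among them the neuropeptide genes Pomc at 0.48 (SE 0.10) and Avp at 0.49 (SE 0.12), and their sum varied from 401 to 834 CPM between libraries. Of 12 endothelial markers 5 fell and 0 rose, with Slco1a4, a transporter of the blood-brain barrier, at -0.21 (SE 0.04). Of 13 mural and fibroblast markers 5 fell and 0 rose, the collagens Col1a1 at -0.80 (SE 0.14) and Col3a1 at -1.17 (SE 0.25) among them. Neither collagen was called at 12 weeks (adjusted p = 0.316 and 0.37 in edgeR). The summed list was at 233 to 281 CPM at 0 days and at 228 to 393 CPM at 12 weeks, and its highest library (409 CPM) was at 1 day. Of 12 markers of newborn neurons and precursors 2 rose, Dlx1 (0.25, SE 0.04) and Tubb2b (0.13, SE 0.03), and 2 fell, Top2a (-1.28, SE 0.23) and Mki67 (-1.01, SE 0.25), both genes of dividing cells.

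Of 9 choroid plexus markers tested there 4 fell and 1 rose, and their sum was 33.7 to 42.8 CPM at 0 days and 37.1 to 45 CPM at 12 weeks, with 4 of the 10 listed under 1 CPM. The trend of Ttr was -5.70 (SE 0.89) and that of Clic6 0.28 (SE 0.05). Of 7 pituitary markers 1, the growth hormone gene Gh, fell (-7.92, SE 1.27). Gh also fell in the hippocampus (-4.09), neocortex (-6.90) and olfactory bulb (-2.44). The sum of the 12 listed was 321 to 363 CPM at 0 days and 322 to 355 CPM at 12 weeks, with 9 of the 12 under 1 CPM. This sum does not measure pituitary tissue, as its median was higher in the hippocampus (769 CPM) than in the hypothalamus (329 CPM). At 12 weeks neither Ttr (adjusted p = 0.855 in edgeR) nor Gh (adjusted p = 0.264 in edgeR) was called.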
